A study of Mus musculus with 15 samples.

Results

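The transcripts described here are those of 30 mouse genes that make, sense, move and export cholesterol. They were found by symbol in the deposited expression table of 56979 gene identifiers, and all 30 were found and passed the filter on low values in each fit, Abcg1 in BMSC only through the Aged group. Of these, 18 encode enzymes of the mevalonate and sterol pathway, 5 encode the sterol-sensing SREBP system, 2 act in uptake control and sterol transport (Mylip and Stard4), and 5 belong to the liver X receptor (LXR) and efflux arm (Nr1h2, Nr1h3, Abca1, Abcg1 and Apoe). The data were 15 libraries of polyadenylated RNA from wild type mouse bone marrow cells, with 3 libraries in each of 5 groups. Control (treatment Vehicle), LPS and LPS_NZM (treatment LPS+NZM) are groups of BMDM, which are macrophages cultured from marrow. LPS is lipopolysaccharide, a bacterial outer membrane component that activates macrophages. The BMSC, named by that abbreviation in the labels, comprised Aged (treatment H2HO) and Aged_NZM (treatment H2HO+NZM). The labels explain neither NZM nor H2HO and give no dose, time or age. Neither NZM alone in BMDM nor BMSC lacking H2HO was analysed here, so each response to NZM was measured on top of another agent.

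Cholesterol is built from acetyl-CoA through mevalonate, farnesyl diphosphate, squalene and lanosterol. When membrane sterol is low, Scap escorts the SREBP transcription factors out of the endoplasmic reticulum and they switch on genes of synthesis and uptake, whereas the Insig proteins hold Scap back when sterol is plentiful. Oxysterols activate the LXR nuclear receptors, which induce the exporters Abca1 and Abcg1 and the ubiquitin ligase Mylip, which sends lipoprotein receptors for degradation. Macrophages take up large amounts of lipid from dead cells and lipoproteins and depend on the exporters to release it.

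Values are TPM, a length-corrected share of the transcripts of a library, so that levels can be set side by side between genes. A change is a difference of mean log2(TPM + 1) and was called at an adjusted p under 0.05 (limma, Benjamini-Hochberg over all genes tested). The depth of the libraries is unknown. The labels do not say whether replicates are separate animals or cultures, so a p-value rests on a spread among libraries that may be technical only. TPM are shares of a whole, and the share of a typical gene moved between groups. The median log2 change of all genes tested was -0.48 for LPS against Control, 0.40 for LPS_NZM against LPS, -0.07 for LPS_NZM against Control and -0.18 for Aged_NZM against Aged. Each change was therefore also computed after centring each library on its median gene, and "on both scales" below means called in the same direction before and after centring. The share of all genes called on both scales, or with groups that did not overlap, was not counted. Calls on both scales and lack of overlap are therefore given as descriptions of single genes. In bulk samples, fewer cells of a type and less RNA per cell cannot be told apart. The 12 macrophage markers summed to between 26466 and 35543 TPM in the BMDM and to between 107 and 130 TPM in the BMSC, where C1qb and C1qc were at 0 in all 6 libraries. BMDM also held stromal markers (2360 to 3100 TPM summed over 11) and neutrophil markers (1612 to 2516 TPM summed over 10). The Control libraries differed among themselves in mast cell and basophil markers, which summed to 10.6 TPM in replicate 1 and 518 TPM in replicate 2. Leaving out each library in turn moved the called log2 change of 1 of the 30 members by more than 1.5 times (Tm7sf2 in BMSC), and the members whose calls it changed are named with each comparison.

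Promoters of members were read from RefSeq (build GRCm38.p6, 250 bases upstream of the start). Of the 30 members, 25 had at least 1 window among those searched, 36 windows in all. This count does not show that RefSeq lacks windows for the other members. The first set is shown because the letters CCAAT, a box bound by NF-Y, which acts beside SREBP in this pathway, occurred on either strand in 14 of 18 windows of synthesis enzymes (77.8%), against 33.8% of 32851 windows of all genes. Capitals mark CCAAT or its reverse complement ATTGG and, in Hmgcs1, the sterol regulatory element letters TCACNCCAC.
Hmgcs1 (chr13:119690101-119690350, plus strand): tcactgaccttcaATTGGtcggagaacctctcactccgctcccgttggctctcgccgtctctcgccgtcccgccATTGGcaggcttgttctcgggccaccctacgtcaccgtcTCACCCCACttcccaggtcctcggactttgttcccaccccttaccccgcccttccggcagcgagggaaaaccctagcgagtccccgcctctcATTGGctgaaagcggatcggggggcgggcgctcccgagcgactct
Mvk (chr5:114444019-114444268, plus strand): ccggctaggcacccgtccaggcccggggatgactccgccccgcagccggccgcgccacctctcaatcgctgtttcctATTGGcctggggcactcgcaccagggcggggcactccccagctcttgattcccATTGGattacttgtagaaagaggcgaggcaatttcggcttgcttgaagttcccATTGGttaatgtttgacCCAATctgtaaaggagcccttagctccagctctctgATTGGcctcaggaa
Msmo1 (chr8:64733579-64733828, minus strand): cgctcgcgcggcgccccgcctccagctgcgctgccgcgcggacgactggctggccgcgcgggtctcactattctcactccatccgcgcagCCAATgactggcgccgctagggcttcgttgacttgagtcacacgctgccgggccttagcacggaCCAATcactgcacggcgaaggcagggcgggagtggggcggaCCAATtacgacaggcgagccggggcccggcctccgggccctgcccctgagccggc
The sterol element letters stood in 1 of the 18 synthesis windows, that of Hmgcs1, against 1.05% of all windows. The GC box letters GGGCGG stood in 15 of the 18 (83.3%, against 32.7% of all windows) and the E-box letters CACGTG in 3 (16.7%, against 6.02%). Both strands were searched, matches of different motifs may overlap, and a gene with several starts has a window for each.

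The second set holds the 2 members, of the 25 with a window, whose windows matched GGTTA and GGTCA with 5 bases of any kind between them. This is a spaced direct repeat of the kind that LXR binds with its partner RXR. Capitals mark the match, which lay on the opposite strand in both. It was found in 15 of the 32851 windows (0.0457%).
Abca1 (chr4:53159896-53160145, minus strand): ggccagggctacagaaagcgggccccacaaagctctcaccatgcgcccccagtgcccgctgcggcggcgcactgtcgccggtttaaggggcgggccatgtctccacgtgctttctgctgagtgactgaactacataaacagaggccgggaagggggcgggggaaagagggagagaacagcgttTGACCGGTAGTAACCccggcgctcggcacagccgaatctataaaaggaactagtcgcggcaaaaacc
Srebf1 (chr11:60210472-60210721, minus strand): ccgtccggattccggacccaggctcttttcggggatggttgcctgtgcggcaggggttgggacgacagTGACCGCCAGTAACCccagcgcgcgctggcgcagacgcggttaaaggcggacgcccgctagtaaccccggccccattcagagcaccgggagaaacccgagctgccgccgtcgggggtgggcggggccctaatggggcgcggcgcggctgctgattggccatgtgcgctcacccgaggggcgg
For Srebf1, which has 3 windows, the one with the match is shown. CCAAT occurred in 0 of the 7 windows of the LXR and efflux genes. Abcg1 has no window among them, so its promoter was not searched for either set. A match describes letters in a window and does not show that a factor was bound there.

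The enzymes were expressed in both cell types, and their summed level was higher in each BMDM library than in each BMSC library. The summed TPM of the 18 enzymes was 764 ± 12.8 in Control, 563 ± 1.41 in LPS and 642 ± 1.44 in LPS_NZM, and 482 ± 12.4 in Aged and 426 ± 0.380 in Aged_NZM (mean ± SD, n = 3 here and below). Apoe, the apolipoprotein that carries exported lipid, was at 27894 TPM in Control and 17.9 TPM in Aged, the widest gap of a member between the cell types by mean TPM. Abcg1 was at 7.71 TPM in Control and 1.41 TPM in Aged, and it was the 1 member of 30 whose mean fell under 1 TPM in a group (Aged_NZM). These gaps between cell types are descriptions, since the cell types also differ in their treatments.

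Within a library, the mean log2(TPM + 1) of the 18 enzymes minus that of Abca1, Abcg1 and Apoe gave a balance of synthesis against efflux from which a common factor of the library largely cancels. It was -2.58 ± 0.07 in Control, -2.95 ± 0.02 in LPS and -3.002 ± 0.03 in LPS_NZM. The BMSC lay on the other side of 0, at 1.70 ± 0.11 in Aged and 0.90 ± 0.05 in Aged_NZM. The 3 LPS libraries and the 3 LPS_NZM libraries both lay below the 3 Control libraries, and the LPS libraries overlapped those of LPS_NZM. The sign in BMDM came from Apoe. Without it, the balance was 0.92 in Control, 0.48 in LPS and 0.36 in LPS_NZM, and 2.39 and 1.60 in Aged and Aged_NZM.

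**Figure D1:**
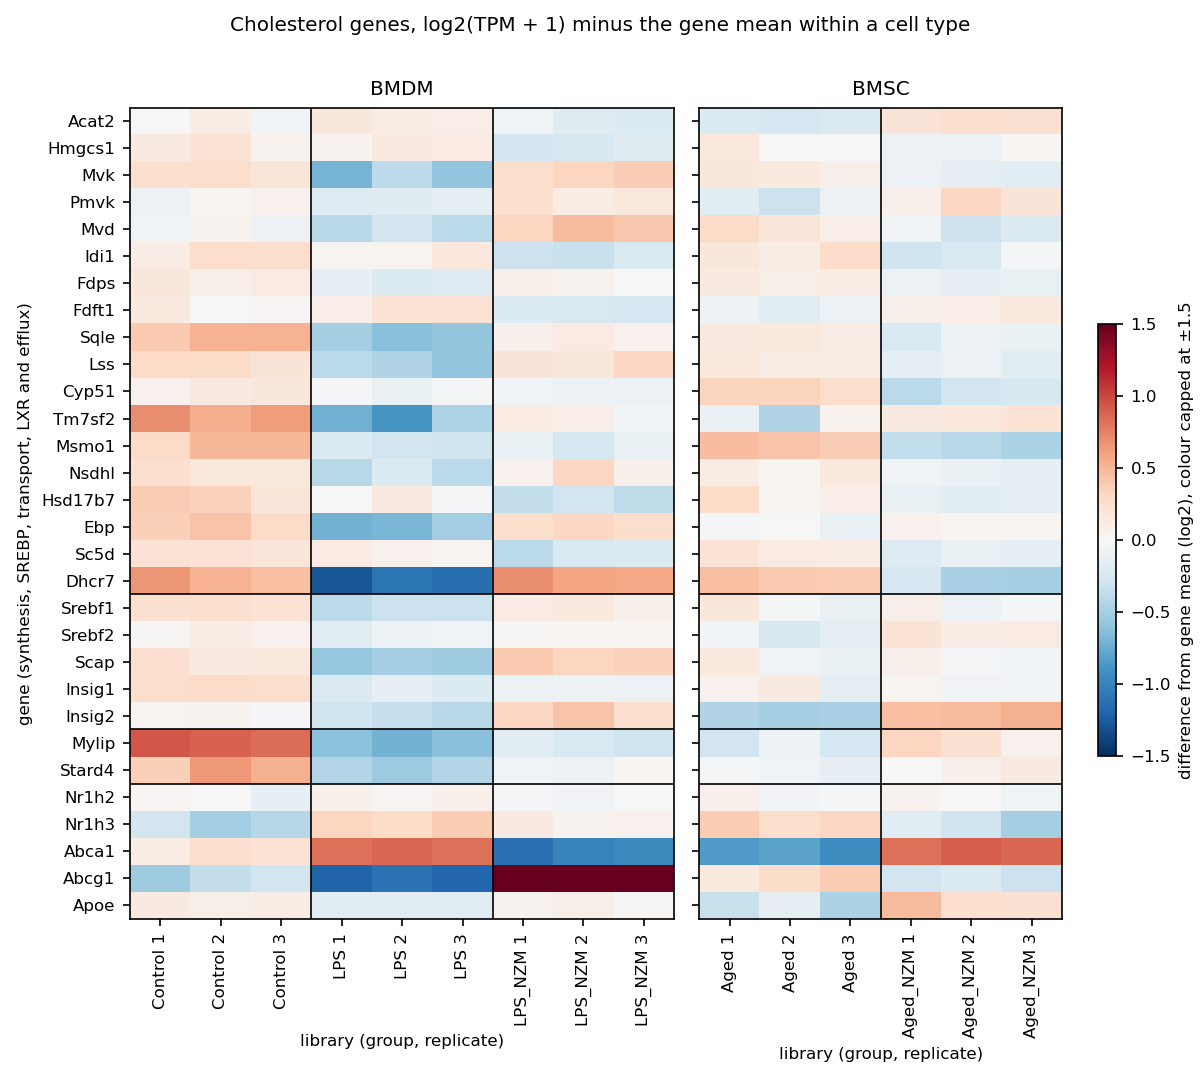
Each cell is the log2(TPM + 1) of a gene (rows, in pathway order) in a library (columns) minus the mean of that gene over the libraries of its cell type, with the colour capped at 1.5. Abca1 and Abcg1 run in opposite directions in both panels, and Dhcr7 is low in the 3 LPS libraries and in the 3 Aged_NZM libraries. In BMSC Abcg1 is near the filter limit, at a mean of 1.41 TPM in Aged and under 1 TPM in each Aged_NZM library.

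LPS was set against Control for the response of BMDM to the activating agent. Of the 18 enzymes, 14 were lower and 0 higher at the deposited scale. Among all 30 members 23 were lower and 2 higher, where 65.6% of all genes tested were lower and 15.2% higher. After centring, 10 enzymes were higher and 6 lower (17 and 10 of 30 members), where 36.5% of all genes were higher and 29.1% lower. The sign turned with centring in 9 of the 18 enzymes and 13 of the 30 members. Without Control replicate 1, 4 members were higher in place of 2, since Fdft1 and Nr1h2 were then called, and without LPS replicate 1 Fdft1 was called higher as well. Idi1 was called lower without Control replicate 1 or LPS replicate 3. The call of Pmvk was lost without Control replicate 2 or 3 or LPS replicate 2 (adjusted p 0.0503 to 0.0693), and that of Sc5d on leaving out any single Control library, LPS replicate 2 or 3, or LPS_NZM replicate 2 (adjusted p 0.0507 to 0.134). The median change of the 18 was -0.32, or 0.23 after centring, beside 0.07 for all genes after centring.

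Lower on both scales were 6 enzymes, Mvk near the start of the pathway and Sqle, Lss, Tm7sf2, Ebp and Dhcr7 from squalene onward. They were 33.3% of the enzymes, where 29.1% of all genes were lower after centring. Dhcr7, the reductase that makes cholesterol from its last precursor, was at 39.95, 36.2 and 34.2 TPM in the 3 Control libraries and 9.56, 11.1 and 10.8 TPM in LPS. The groups were far apart, and Dhcr7 fell by 1.72 on the log2 scale (SE 0.07, adjusted p = 9.43e-09), with -1.17 after centring. Tm7sf2, a sterol reductase just after lanosterol, was at 12.8, 11.4 and 12.1 TPM in Control and 4.16, 3.61 and 5.15 TPM in LPS, which is a log2 change of -1.31 (SE 0.11, adjusted p = 1.37e-06). The lowest Control library of Tm7sf2 was above the highest LPS library.

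Sqle, squalene epoxidase, which acts on squalene, was at 74.1, 80.95 and 80.8 TPM in Control and 39.3, 35.8 and 37.1 TPM in LPS, with log2 change -1.05, SE 0.05, adjusted p = 1.63e-08. Ebp, the sterol isomerase, was at 50.3, 52.9 and 47.6 TPM and 23.5, 23.8 and 27.1 TPM (log2 change -0.99, SE 0.06, adjusted p = 1.52e-07). In both genes each LPS library was below each Control library.

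The early enzyme Hmgcs1, HMG-CoA synthase, behaved otherwise. It was at 72.95, 76.3 and 68.9 TPM in Control and 68.8, 72.6 and 72.04 TPM in LPS, and these overlapped. Its log2 change of -0.03 (SE 0.05, adjusted p = 0.554) did not pass the test, and after centring it was higher, at 0.52. Acat2, Idi1 and Fdft1, the cytosolic thiolase, the isopentenyl isomerase and squalene synthase, likewise missed the test at the deposited scale and were higher after centring. Pmvk, Mvd, Fdps, Cyp51, Hsd17b7 and Sc5d went from lower to higher with centring, and Msmo1 and Nsdhl, enzymes of the demethylation of sterols, from lower to no call.

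The 5 genes of the SREBP system were lower at the deposited scale. Scap, the escort of the SREBPs, was at 42.7, 39.3 and 39.9 TPM in Control and 23.8, 25.1 and 24.5 TPM in LPS, which is a log2 change of -0.71 (SE 0.05, adjusted p = 2.10e-07), and it alone of the 5 was also lower after centring, at -0.16. Srebf1, which encodes the SREBP known chiefly for fatty acid synthesis, was at 39.2, 39.5 and 39.03 TPM and 25.2, 26.6 and 26.6 TPM (log2 change -0.57, SE 0.04, adjusted p = 4.40e-07, or -0.02 with no call after centring). The Control and LPS libraries did not overlap in either gene.

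Srebf2, which encodes the SREBP that chiefly drives cholesterol synthesis, was at 102, 108 and 105 TPM in Control and 89.8, 94.99 and 96.7 TPM in LPS. Its change of -0.16 (SE 0.04, adjusted p = 0.00201) turned to 0.38 after centring. Insig1, itself a target of the SREBPs, was at 56.4, 56.8 and 56.0 TPM and 39.96, 42.6 and 40.2 TPM, and its change of -0.45 (SE 0.04, adjusted p = 1.23e-06) turned to 0.09. Insig2 turned as well, from -0.38 to 0.17 (adjusted p = 0.0203 after centring). For Srebf2, Insig1 and Insig2 the direction in LPS therefore rests on the centring. Under quantile normalization Srebf2 and Insig1 kept their lower calls, and Insig2 lost its call.

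After Dhcr7, Mylip had the largest fall of the 30 members on both scales. It was at 37.7, 36.4 and 35.02 TPM in Control and 12.2, 11.4 and 12.1 TPM in LPS, without overlap (log2 change -1.54, SE 0.05, adjusted p = 2.49e-09; -0.99 after centring). Stard4, a soluble carrier of sterol between membranes, was at 19.03, 23.6 and 21.7 TPM and 10.6, 9.71 and 10.6 TPM, and it was lower on both scales as well (log2 change -0.99, SE 0.08, adjusted p = 1.25e-06; -0.44 after centring).

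The efflux genes moved apart. Abca1, which loads cholesterol onto lipid-poor apolipoprotein, was at 38.7, 43.1 and 41.9 TPM in Control and 64.6, 65.9 and 64.5 TPM in LPS, whereas Abcg1, which loads it onto formed lipoprotein, was at 6.88, 7.87 and 8.38 TPM and 3.96, 4.30 and 3.97 TPM. Abca1 was higher in each LPS library than in any Control library, and Abcg1 lower. On both scales Abca1 rose (log2 change 0.64, SE 0.05, adjusted p = 1.63e-06) and Abcg1 fell (log2 change -0.78, SE 0.08, adjusted p = 5.20e-06), with centred changes of 1.19 and -0.23. Nr1h3, which encodes LXR alpha, was at 30.2, 25.2 and 27.1 TPM in Control and 46.1, 44.7 and 48.2 TPM in LPS and rose on both scales (log2 change 0.74, SE 0.06, adjusted p = 1.93e-06). Nr1h2, which encodes LXR beta, was at 89.01 ± 4.84 TPM and 94.98 ± 1.92 TPM and did not pass the test at the deposited scale, but was higher after centring (0.64, adjusted p = 2.58e-07).

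Apoe was at 28289, 27491 and 27901 TPM in Control and 23062, 22996 and 23155 TPM in LPS, a change of -0.27 (SE 0.02, adjusted p = 1.48e-06) that turned to 0.27 after centring. The macrophage markers moved with it at the deposited scale, from 33349 to 35543 TPM summed in Control to 26466 to 26656 TPM in LPS, and neutrophil markers went from 1612 to 1798 TPM to 2284 to 2516 TPM. The part of these shifts in the change of Apoe and of the other members was not tested. With a minimum absolute log2 change of 1, 4 of 30 members were lower (Dhcr7, Mylip, Tm7sf2 and Sqle) and 0 higher, where 17.3% and 7.0% of all genes were.

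Neighbouring pathways were counted in the same fit, with lists drawn up with earlier results of these data in view. Of all genes in this fit, 15.2% were higher and 65.6% lower (36.5% and 29.1% after centring). Of 11 genes of fatty acid synthesis, 1 was higher and 9 lower (2 and 6 after centring), with median -0.95. Fads1, a fatty acid desaturase, was at 76.6 ± 1.73 TPM in Control and 15.4 ± 0.0473 TPM in LPS (log2 change -2.24, SE 0.03). Of 12 tested genes of cholesterol storage and intracellular transport, 4 were higher and 8 lower (5 and 5 after centring). Among them Nceh1, the neutral hydrolase that frees cholesterol from stored esters, was at 185 ± 8.47 TPM and 11.7 ± 0.658 TPM, the largest change in this list (log2 change -3.88, SE 0.05). Of 11 other LXR targets, 0 were higher and 9 lower (2 and 5 after centring), with Arl4c, a small GTPase, at 94.2 ± 3.58 TPM and 16.3 ± 0.527 TPM (log2 change -2.46, SE 0.04). Fasn, Scd1 and Scd2 stand in both the fatty acid list and the LXR list.

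The next counts stand beside the same shares of all genes, 15.2% higher and 65.6% lower (36.5% and 29.1% after centring). Of the 4 oxysterol enzymes, 2 were higher and 2 lower (2 and 2 after centring). Ch25h, the hydroxylase that makes an oxysterol able to silence the SREBPs, was at 6.47 ± 1.04 TPM in Control and 58.4 ± 3.39 TPM in LPS (log2 change 2.999, SE 0.09). Of the 8 lipoprotein and scavenger receptors, 3 were higher and 5 lower (4 and 4 after centring), with the scavenger receptor Marco at 338 ± 11.6 TPM and 1780.5 ± 25.7 TPM (log2 change 2.39, SE 0.03). SREBP processing gave 1 higher and 6 lower (2 and 2 after centring) of 8, with Mbtps2, a protease that releases the SREBPs, at 24.5 ± 2.44 TPM and 12.6 ± 0.153 TPM (log2 change -0.91, SE 0.07). Isoprenoid branches gave 0 higher and 12 lower (4 and 6 after centring) of 13, with Icmt, which methylates prenylated proteins, at 34.6 ± 1.32 TPM and 16.8 ± 1.02 TPM (log2 change -0.996, SE 0.06).

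The comparison of LPS_NZM with LPS shows what NZM changed in activated BMDM. It shares the LPS libraries with the comparison above, so the signs of the 2 comparisons are not independent of each other. Of the 18 enzymes, 10 were higher and 6 lower, and of the 30 members 19 were higher and 8 lower, where 60.4% of all genes tested were higher and 16.9% lower. After centring, 6 enzymes were higher and 9 lower (9 and 15 of 30 members), where 29.8% of all genes were higher and 35.3% lower. The median change of the 18 was 0.28, below the 0.40 of all genes.

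On both scales 6 enzymes were higher (Mvk, Mvd, Sqle, Lss, Ebp and Dhcr7) and 6 lower (Acat2, Hmgcs1, Idi1, Fdft1, Hsd17b7 and Sc5d). The 6 higher were 33.3% of the enzymes, where 29.8% of all genes were higher after centring. The 6 lower were also 33.3%, where 16.9% of all genes were lower at the deposited scale. Dhcr7 was at 9.56, 11.1 and 10.8 TPM in LPS and 40.98, 37.9 and 37.5 TPM in LPS_NZM, a change of 1.79 (SE 0.07, adjusted p = 6.52e-09) and 1.33 after centring. It had the largest rise among the enzymes on each scale. Ebp was at 23.5, 23.8 and 27.1 TPM and 46.8, 48.4 and 46.9 TPM (log2 change 0.91, SE 0.06), and Mvk, mevalonate kinase, at 10.5, 13.2 and 11.4 TPM and 21.3, 22.3 and 22.9 TPM (log2 change 0.87, SE 0.08). No library of LPS reached the lowest library of LPS_NZM in these 3 genes.

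Mvd, the decarboxylase that makes isopentenyl diphosphate, was at 16.4, 18.2 and 16.7 TPM in LPS and 28.04, 31.1 and 29.8 TPM in LPS_NZM (log2 change 0.76, SE 0.06, adjusted p = 1.41e-06; 0.29 after centring). Sqle was at 39.3, 35.8 and 37.1 TPM and 59.2, 61.01 and 58.8 TPM (log2 change 0.66, SE 0.05, adjusted p = 5.60e-07; 0.20 after centring). Hmgcs1 went the other way, from 68.8, 72.6 and 72.04 TPM in LPS to 54.2, 55.9 and 58.05 TPM in LPS_NZM, also without overlap (log2 change -0.34, SE 0.05, adjusted p = 6.60e-05; -0.80 after centring). The 18 enzymes thus moved in both directions with NZM.

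All 5 SREBP genes were higher at the deposited scale, and Scap and Insig2 on both scales. Scap was at 23.8, 25.1 and 24.5 TPM in LPS and 47.4, 44.8 and 45.6 TPM in LPS_NZM (log2 change 0.88, SE 0.05, adjusted p = 3.85e-08), and Insig2, a retention factor of Scap that is less tied to SREBP activity than Insig1, at 38.7, 37.7 and 35.9 TPM and 60.1, 64.8 and 57.2 TPM (log2 change 0.68, SE 0.05, adjusted p = 8.07e-07). Centred changes were 0.42 and 0.22. Srebf2 (89.8, 94.99 and 96.7 TPM, then 102, 103 and 103 TPM) and Insig1 (39.96, 42.6 and 40.2 TPM, then 43.98, 44.2 and 43.7 TPM) changed by 0.13 and 0.10, which turned to -0.33 and -0.36 after centring. The call of Insig1 at the deposited scale was lost without LPS replicate 1 or 3 or LPS_NZM replicate 1 or 2, where its adjusted p ran from 0.0645 to 0.0941. Nr1h2, not called with all libraries, was called lower without Control replicate 3 (log2 change -0.08, adjusted p = 0.0482). Mylip was at 12.2, 11.4 and 12.1 TPM and 17.0, 16.2 and 15.5 TPM (log2 change 0.42, SE 0.05, adjusted p = 4.66e-05), and Stard4 at 10.6, 9.71 and 10.6 TPM and 14.1, 13.7 and 15.1 TPM (log2 change 0.44, SE 0.08, adjusted p = 5.67e-04). Both moved with the median gene, since their centred changes were -0.04 and -0.02, without a call.

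Abca1 and Abcg1 showed the largest changes of the 30 members, in opposite directions. Abca1 was at 64.6, 65.9 and 64.5 TPM in LPS and 15.9, 17.4 and 17.8 TPM in LPS_NZM, 3.81-fold lower in mean TPM (log2 change -1.87, SE 0.05, adjusted p = 5.24e-10). Abcg1 was at 3.96, 4.30 and 3.97 TPM and 31.8, 33.6 and 31.9 TPM, 7.96-fold higher (log2 change 2.72, SE 0.08, adjusted p = 4.04e-10). The groups of both genes were far apart, and the directions held after centring, at -2.34 and 2.26. The ratio of Abca1 to Abcg1 TPM in a library, which no scaling of the library changes, was 5.37 ± 0.329 in Control, 15.96 ± 0.558 in LPS and 0.526 ± 0.0292 in LPS_NZM.

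Apoe was at 23062, 22996 and 23155 TPM in LPS and 26908, 27367 and 26178 TPM in LPS_NZM, and its change of 0.22 (SE 0.02, adjusted p = 9.33e-06) turned to -0.25 after centring. Nr1h3 was lower on both scales, at 46.4 ± 1.75 TPM in LPS and 39.2 ± 1.24 TPM in LPS_NZM. Macrophage markers summed to 26466 to 26656 TPM in LPS and 28509 to 29004 TPM in LPS_NZM, and the endothelial markers to 35.9 to 40.3 TPM and 75.2 to 78.9 TPM. Their part in these changes was not tested. With a minimum absolute log2 change of 1, Abcg1 and Dhcr7 were higher and Abca1 lower, 2 and 1 of 30, where 15.2% and 7.14% of all genes were.

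**Figure D2:**
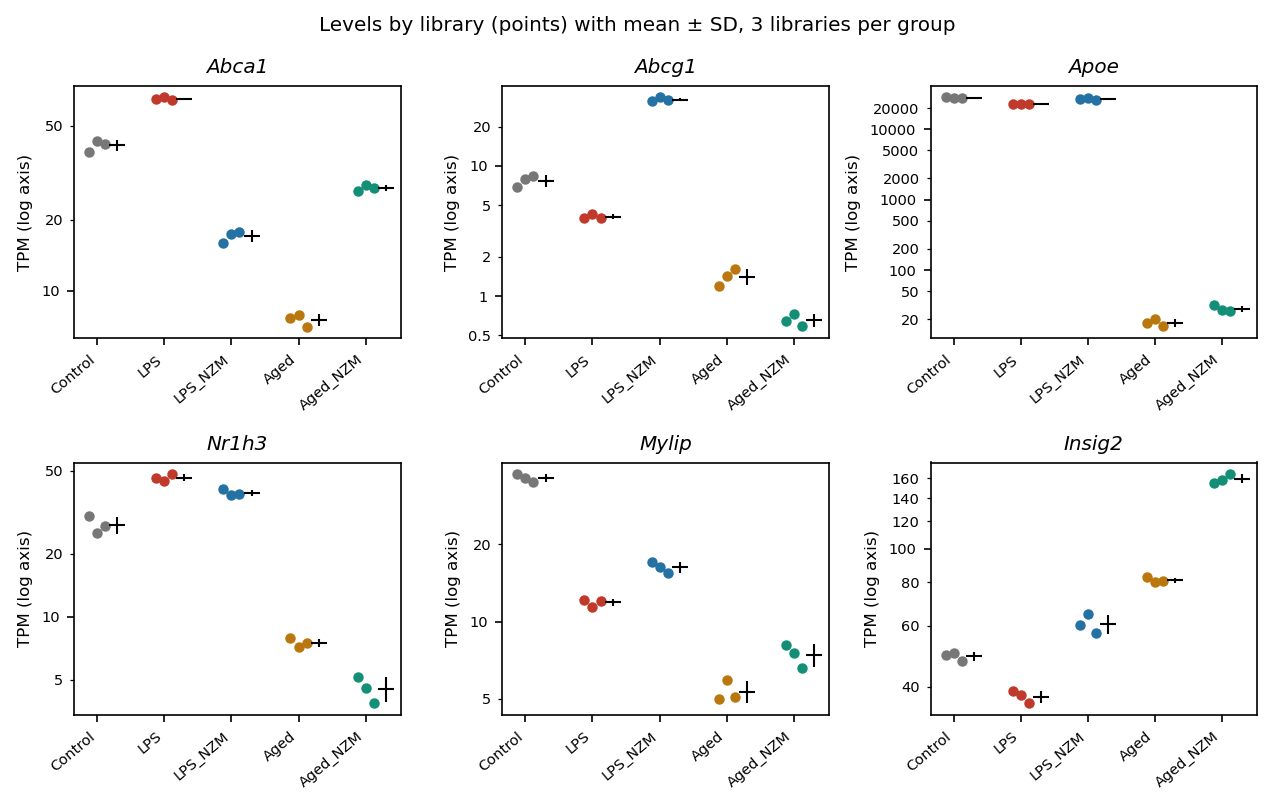
TPM on a log axis in each library (points, left to right in replicate order) with mean ± SD of the 3 libraries beside them. Abca1 is higher in LPS than in Control while Abcg1 is lower, and with NZM both turn round in BMDM (Abca1 to 17.04 TPM, Abcg1 to 32.4 TPM).

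The neighbouring lists in LPS_NZM against LPS stand beside 60.4% of all genes higher and 16.9% lower (29.8% and 35.3% after centring). Of 11 fatty acid genes, 9 were higher and 2 lower (7 and 2 after centring), with Fads1 at 15.4 ± 0.0473 TPM in LPS and 53.7 ± 0.401 TPM in LPS_NZM (log2 change 1.74, SE 0.03). Of the 11 other LXR targets, 7 were higher and 1 lower (3 and 4 after centring), led by Arl4c at 16.3 ± 0.527 TPM and 174 ± 2.45 TPM (log2 change 3.34, SE 0.04). Storage and transport gave 7 higher and 4 lower (4 and 5 after centring) of 12, with Nceh1 at 11.7 ± 0.658 TPM and 86.9 ± 3.79 TPM (log2 change 2.80, SE 0.05). Of the 8 receptors, 4 were higher and 3 lower (4 and 4 after centring), with Marco at 1780.5 ± 25.7 TPM and 324 ± 2.44 TPM (log2 change -2.46, SE 0.03). Of the 4 oxysterol enzymes, 3 were higher and 1 lower (2 and 1 after centring), with the sterol hydroxylase Cyp27a1 at 1.41 ± 0.433 TPM and 5.88 ± 0.470 TPM (log2 change 1.53, SE 0.13). SREBP processing gave 6 higher and 1 lower (1 and 3 after centring) of 8, with Rnf145, a ubiquitin ligase of the endoplasmic reticulum, at 52.7 ± 0.0173 TPM and 30.03 ± 0.425 TPM (log2 change -0.79, SE 0.04). Isoprenoid branches gave 10 higher and 0 lower (5 and 3 after centring) of 13, and Fntb, a subunit of protein farnesyltransferase, had the largest of these changes (log2 change 0.93, SE 0.09).

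Set against Control, the LPS_NZM libraries show where the pathway stood when both agents were present. Of the 18 enzymes, 2 were higher and 10 lower (2 and 8 after centring), and of the 30 members 6 were higher and 15 lower, where 18.6% of all genes tested were higher and 29.1% lower. Without Control replicate 1, or LPS_NZM replicate 1 or 3, 1 enzyme was higher in place of 2. The calls of Acat2 and Srebf1, both lower, were each near the threshold: that of Acat2 was lost on leaving out 7 of the 9 libraries (all but Control replicate 3 and LPS_NZM replicate 1) and that of Srebf1 on leaving out 8 (all but LPS replicate 1). After centring the members stood at 6 higher and 12 lower, with 24.9% and 22.0% of all genes.

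Dhcr7, Lss and Ebp, lower in LPS, did not pass the test between LPS_NZM and Control, with means of 38.8 ± 1.91, 12.3 ± 0.710 and 47.4 ± 0.933 TPM in LPS_NZM beside 36.8 ± 2.93, 12.5 ± 0.545 and 50.2 ± 2.68 TPM in Control. Their libraries overlapped. Hsd17b7, a reductase of the sterol demethylation steps, was lower, at 59.04, 57.6 and 51.5 TPM in Control and 35.1, 36.8 and 34.6 TPM in LPS_NZM (log2 change -0.64, SE 0.06, adjusted p = 1.72e-05). Msmo1, the methylsterol oxidase, was at 77.6, 89.8 and 89.5 TPM and 58.99, 52.4 and 58.5 TPM (log2 change -0.59, SE 0.07, adjusted p = 6.08e-05). Neither gene overlapped between the groups, and both were lower after centring as well.

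Tm7sf2 was at 12.8, 11.4 and 12.1 TPM in Control and 8.26, 8.07 and 7.24 TPM in LPS_NZM (log2 change -0.57, SE 0.11, adjusted p = 0.00179), and Idi1 at 37.03, 41.2 and 41.3 TPM and 27.4, 27.04 and 29.1 TPM (log2 change -0.50, SE 0.06, adjusted p = 6.20e-05). Sqle (59.2, 61.01 and 58.8 TPM in LPS_NZM) and Hmgcs1 (54.2, 55.9 and 58.05 TPM) were lower than in Control by log2 changes of -0.39 and -0.37, with adjusted p of 1.09e-04 and 1.16e-04. These 4 enzymes were lower on both scales. Pmvk and Mvd, which act one after the other on phosphorylated mevalonate, were the 2 that were higher on both. The call of Pmvk (log2 change 0.17, SE 0.06, adjusted p = 0.0292) is the one lost without Control replicate 1 or LPS_NZM replicate 1 or 3 (adjusted p 0.0537 to 0.109). It was also lost with only the 2 groups in the fit (adjusted p = 0.0529) and with the replicate number as a block (adjusted p = 0.0505), whereas Mvd kept its call in these fits.

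Insig1 was lower (log2 change -0.35, SE 0.04) and Insig2 higher (log2 change 0.30, SE 0.05), both on both scales, and Srebf2 did not pass the test (log2 change -0.03, SE 0.04). Mylip was at 16.2 TPM beside 36.3 TPM in Control (log2 change -1.11, SE 0.05, adjusted p = 1.32e-07), and Stard4 at 14.3 TPM beside 21.5 TPM (log2 change -0.55, SE 0.08, adjusted p = 3.35e-04). Abcg1 was 4.21-fold above Control (log2 change 1.94, SE 0.08, adjusted p = 2.61e-08) and Abca1 2.42-fold below (log2 change -1.23, SE 0.05, adjusted p = 6.30e-08). These 2 exporters and Mylip were the members past an absolute log2 change of 1, 1 higher and 2 lower, where 2.73% and 1.77% of all genes were. The change of Apoe was -0.06 (SE 0.02, adjusted p = 0.0636), which did not pass the test.

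Macrophage markers summed to 33349 to 35543 TPM in Control and 28509 to 29004 TPM in LPS_NZM, neutrophil markers to 1612 to 1798 TPM and 2057 to 2462 TPM, and endothelial markers to 41.03 to 43.1 TPM and 75.2 to 78.9 TPM. Their part in the changes of the members was not tested.

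Neighbouring genes were also at levels other than in Control. Of all genes in this comparison, 18.6% were higher and 29.1% lower (24.9% and 22.0% after centring). Ch25h was at 89.9 ± 4.10 TPM, above Control (log2 change 3.61, SE 0.09), and the count was 2 higher and 2 lower (2 and 2 after centring) of the 4 oxysterol enzymes. Gramd1b, which moves cholesterol from the plasma membrane to the endoplasmic reticulum, was at 74.8 ± 2.29 TPM in Control and 27.9 ± 1.23 TPM in LPS_NZM (log2 change -1.39, SE 0.05), with 1 higher and 7 lower (1 and 7 after centring) of 12 storage and transport genes. The other LXR targets gave 2 higher and 6 lower (2 and 4 after centring) of 11, the fatty acid genes 1 higher and 7 lower (2 and 4 after centring) of 11, and the receptors 1 higher and 4 lower (2 and 4 after centring) of 8. SREBP processing gave 0 higher and 2 lower (1 and 2 after centring) of 8 and isoprenoid branches 1 higher and 3 lower (4 and 1 after centring) of 13.

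**Figure D3:**
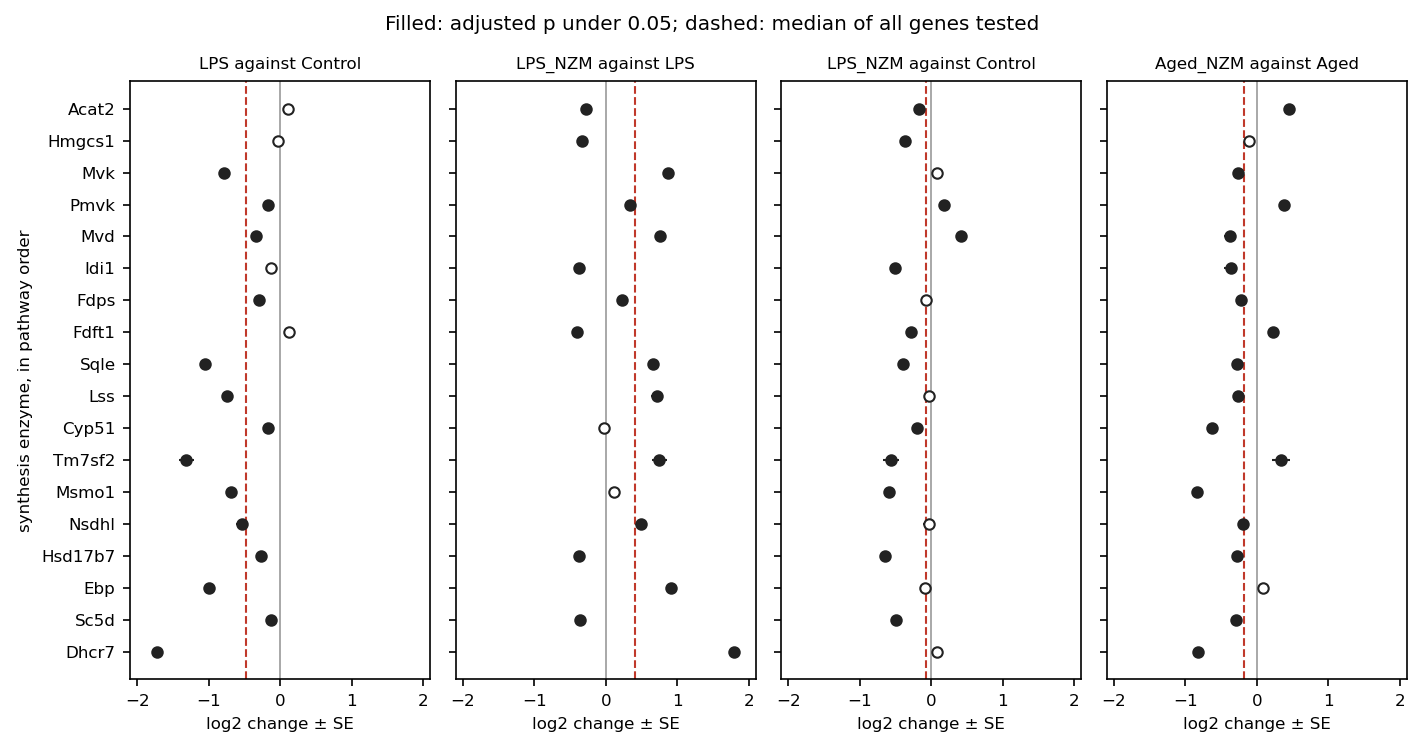
Log2 change ± SE of the 18 synthesis enzymes, in pathway order from top to bottom, in 4 comparisons, with filled points at an adjusted p under 0.05 and a dashed line at the median of all genes tested. In the first 2 panels the enzymes lie on both sides of the dashed line, and Dhcr7 lies farthest from it in both, at -1.72 and 1.79.

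The comparison of Aged_NZM with Aged shows what NZM changed in BMSC given H2HO. Of the 18 enzymes, 12 were lower and 4 higher, and of the 30 members 14 were lower and 9 higher, where 48.9% of all genes tested were lower and 21.6% higher. After centring, 5 enzymes were lower and 5 higher (7 and 13 of 30 members), with 35.4% and 31.1% of all genes. The 14 members lower, and the 7 after centring, include Abcg1, which passed the filter only through the Aged group. Of the enzymes, Mvd, Cyp51, Msmo1, Sc5d and Dhcr7 were lower on both scales, and Acat2, Pmvk, Fdft1 and Tm7sf2 were higher on both. The former were 27.8% of the enzymes, where 35.4% of all genes were lower after centring. The latter were 22.2%, where 21.6% of all genes were higher at the deposited scale. The call of Tm7sf2 (log2 change 0.34) was lost on leaving out Aged replicate 1 or 2 or any Aged_NZM library (adjusted p 0.0524 to 0.103), and its change was 0.20 without Aged replicate 2. The median change of the 18 was -0.26, beside -0.18 for all genes.

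Msmo1 was at 45.2, 44.1 and 42.5 TPM in Aged and 25.1, 24.3 and 23.2 TPM in Aged_NZM (log2 change -0.83, SE 0.05, adjusted p = 3.56e-07). Dhcr7 was at 36.9, 35.3 and 34.99 TPM and 22.2, 18.7 and 18.5 TPM (log2 change -0.82, SE 0.07, adjusted p = 4.68e-06), and Cyp51, the lanosterol demethylase, at 12.98, 13.02 and 12.3 TPM and 7.34, 8.09 and 8.38 TPM (log2 change -0.62, SE 0.07, adjusted p = 2.78e-05). The groups did not overlap in these 3 genes. Nor did they in Ebp and Stard4, which had no call at the deposited scale. The share of all genes without overlap was not counted. Msmo1, Dhcr7 and Cyp51 act between lanosterol and cholesterol. Acat2, which starts the pathway by joining acetyl units, was at 43.2, 41.6 and 42.7 TPM and 57.1, 58.9 and 58.6 TPM (log2 change 0.45, SE 0.04, adjusted p = 5.36e-06), the largest rise of an enzyme at either scale.

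Sqle was at 34.98, 35.4 and 34.4 TPM in Aged and 26.9, 29.9 and 29.4 TPM in Aged_NZM, and its change of -0.27 (SE 0.05, adjusted p = 9.00e-04) lost its call after centring. Hmgcs1 was at 15.2, 13.5 and 13.5 TPM and 12.6, 12.6 and 13.7 TPM, overlapping, and did not pass the test (log2 change -0.11, SE 0.07; 0.05 after centring). Neither gene shows a change that holds on both scales.

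Insig2 rose in each library, from 82.7, 80.1 and 80.6 TPM in Aged to 155, 158 and 165 TPM in Aged_NZM, 1.96-fold (log2 change 0.96, SE 0.04, adjusted p = 2.53e-08; 1.12 after centring). Srebf2 was at 25.6, 22.2 and 23.9 TPM and 30.7, 28.6 and 28.9 TPM and rose on both scales (log2 change 0.29, SE 0.06, adjusted p = 0.00184). Insig1, at 15.1, 15.8 and 12.9 TPM and 14.8, 13.9 and 13.96 TPM, overlapped and did not pass the test (log2 change -0.03, SE 0.08; 0.13 after centring). Mylip was at 4.99, 5.92 and 5.06 TPM and 8.11, 7.55 and 6.61 TPM and rose on both scales (log2 change 0.41, SE 0.10, adjusted p = 0.00352), while Stard4 missed the test at the deposited scale (log2 change 0.15, SE 0.07) and passed it after centring (0.31).

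Abca1 rose, the reverse of its response to NZM in BMDM. It was at 7.64, 7.90 and 7.06 TPM in Aged and 26.5, 28.1 and 27.3 TPM in Aged_NZM, 3.63-fold higher (log2 change 1.73, SE 0.06, adjusted p = 1.48e-08). It was the 1 member of 30 past an absolute log2 change of 1, with 0 lower, where 3.66% of all genes were higher and 4.20% lower by this rule. Abcg1 was at 1.20, 1.42 and 1.60 TPM and 0.640, 0.730 and 0.590 TPM (log2 change -0.54, SE 0.14). It had passed the filter through the Aged group alone, with each Aged_NZM library under 1 TPM, so its lower value is given as a description. Apoe was at 17.6, 20.2 and 15.9 TPM and 31.5, 26.97 and 26.5 TPM and rose on both scales (log2 change 0.64, SE 0.09, adjusted p = 1.73e-04). The Abca1 to Abcg1 ratio was 5.45 ± 0.982 in Aged and 42.1 ± 3.93 in Aged_NZM, where the low level of Abcg1 makes the ratio uncertain. Nr1h3 was at 7.51 ± 0.348 TPM and 4.53 ± 0.642 TPM, lower on both scales, while Nr1h2 stood at 90.7 ± 3.98 TPM and 90.4 ± 3.69 TPM and missed the test at the deposited scale, with a called change of 0.15 after centring.

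Stromal markers moved in the same comparison, from 2753 to 2859 TPM summed over 11 markers in Aged to 6309 to 6321 TPM in Aged_NZM, whereas macrophage markers stood at 121 to 129.5 TPM and 107 to 120.1 TPM and neutrophil markers at 8.78 to 11.1 TPM and 23.6 to 25.2 TPM. Of the adipocyte markers, which summed to 18.5 to 22.9 TPM and 20.4 to 22.8 TPM, 1 of 6 reached a mean of 1 TPM in either group. The part of the stromal shift in the changes of Abca1, Insig2 and the enzymes was not tested.

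The neighbouring lists in BMSC stand beside 21.6% of all genes higher and 48.9% lower (31.1% and 35.4% after centring). Of the 13 genes of isoprenoid branches, 0 were higher and 12 lower (1 and 11 after centring), the largest share lower of the 7 neighbouring lists at the deposited scale. Pdss1, a subunit of the synthase that makes the side chain of ubiquinone, was at 20.96 ± 0.726 TPM in Aged and 8.72 ± 0.550 TPM in Aged_NZM (log2 change -1.18, SE 0.06). SREBP processing gave 2 higher and 6 lower (2 and 6 after centring) of 8, with Paqr3, a Golgi anchor of Scap, at 12.03 ± 1.42 TPM and 7.48 ± 1.07 TPM (log2 change -0.62, SE 0.11). Storage and transport gave 4 higher and 8 lower (5 and 6 after centring) of 13, led by Nceh1 (log2 change -0.74, SE 0.07). Fatty acid genes gave 4 higher and 5 lower (5 and 4 after centring) of 11, with Acly, which supplies acetyl-CoA to fatty acid and sterol synthesis, at 156 ± 9.20 TPM and 84.1 ± 1.88 TPM (log2 change -0.88, SE 0.05). Of 7 tested other LXR targets, 4 were higher and 1 lower (4 and 1 after centring), with Pltp, a phospholipid transfer protein, at 15.6 ± 0.474 TPM and 29.2 ± 1.27 TPM (log2 change 0.86, SE 0.05). Lrp1, a large receptor for lipoprotein remnants, was at 177 ± 18.96 TPM and 492 ± 19.01 TPM (log2 change 1.47, SE 0.07), with 1 higher and 2 lower (2 and 1 after centring) of 4 tested receptors. Of the 4 oxysterol enzymes, 2 were higher and 1 lower (2 and 0 after centring), and Cyp7b1, which inactivates oxysterols, was at 2.73 ± 0.110 TPM and 6.54 ± 1.08 TPM (log2 change 1.01, SE 0.11).

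Whether the change with NZM differed between the cell types was tested as a difference of differences in a fit of the 15 libraries, where the agents given with NZM (LPS or H2HO) differ too. A positive value means a more positive change in BMDM. Of the 30 members, 16 were higher and 6 lower, where 54.8% of all genes tested were higher and 17.2% lower, and after centring 9 were higher and 16 lower, with 28.7% and 39.9% of all genes. For the 18 enzymes the counts were 11 and 3, or 7 and 8 after centring. With a minimum absolute difference of 1, 4 members were higher (Abcg1, Dhcr7, Mvd and Mvk) and 1 lower (Abca1), where 24.9% and 8.18% of all genes were.

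Abca1 differed most, by -3.60 on the log2 scale (SE 0.08, adjusted p = 3.68e-14), and Abcg1 next, by 3.26 (SE 0.11). The BMSC part of the Abcg1 value rests on levels near the filter limit, with means of 1.41 TPM in Aged and 0.653 TPM in Aged_NZM. The Abcg1 difference is therefore given as a description. Both differences kept their direction after centring, at -4.23 and 2.64. Dhcr7 differed by 2.62 (SE 0.11, adjusted p = 2.78e-11; 1.995 after centring), having risen in BMDM and fallen in BMSC on both scales. Mvd, with a difference of 1.14, also rose in the one and fell in the other on both scales. Mvk, Lss, Sqle and Scap differed by 1.13, 0.97, 0.93 and 0.87, and these differences were also positive and called after centring, as were those of Msmo1 (0.94) and Ebp (0.83).

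Acat2, Fdft1, Apoe, Insig2 and Hmgcs1 had negative differences on both scales, -0.72, -0.62, -0.42, -0.28 and -0.23 as deposited. The difference of Tm7sf2 (0.41, adjusted p = 0.0445) lost its call on leaving out 11 of the 15 libraries (all but Control replicate 2, LPS replicate 3, LPS_NZM replicate 3 and Aged replicate 2). The differences of Srebf1 and Stard4, 0.49 and 0.29, turned negative after centring, and that of Stard4 lost its call without LPS replicate 2, LPS_NZM replicate 3 or Aged_NZM replicate 1 (adjusted p 0.0504 to 0.0514). Srebf2, Insig1 and Mylip did not pass the test of the difference at the deposited scale (-0.16, 0.13 and 0.01, with SE of 0.07, 0.08 and 0.10) and were called negative after centring. The same held for Pmvk, Idi1, Hsd17b7, Sc5d and Nr1h2, with centred differences of -0.66, -0.63, -0.72, -0.69 and -0.70. Srebf2 was called without LPS replicate 1, Aged replicate 1 or Aged_NZM replicate 2 (adjusted p 0.00808 to 0.0453), and Insig1 without Aged replicate 3 (adjusted p 0.00527).

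**Figure D4:**
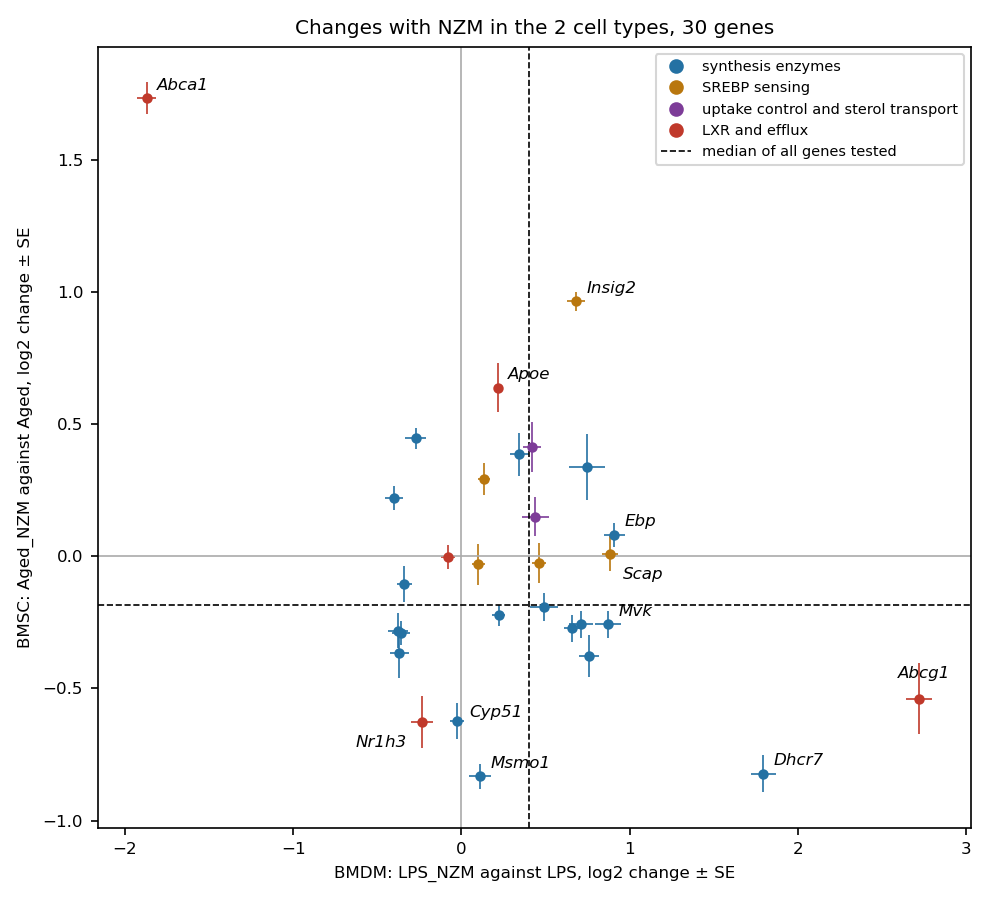
Each point is 1 of the 30 genes, placed by its log2 change ± SE with NZM in BMDM (x axis) and in BMSC (y axis), coloured by role, with dashed lines at the medians of all genes tested. Abca1 (upper left) and Abcg1 and Dhcr7 (lower right) stand in opposite corners, and Insig2 is raised in both cell types. In BMSC Abcg1 is near the filter limit.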

How the data were processed

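Expression was measured in 15 libraries (5 groups of 3). The authors deposited 1 table of TPM, and fastp, HISAT2, StringTie, RSEM and the build GRCm39 are listed, without versions or roles, in the submitters' processing notes. The annotation and the strand setting of the counting are not given in the sources used here, nor is how reads shared with pseudogene copies were assigned. Library preparation was stranded, per the labels' protocols. No depth can be read from TPM, so no counting interval is given.

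Symbols came from a table that matched 52072 of 56979 identifiers. Groups follow the sample labels. The test was limma 3.58.1 under R 4.3.3 on log2(TPM + 1) (mean-variance trend, two-sided) for genes at 1 TPM or more in at least 3 libraries of the fit. The pseudocount of 1 understates changes of low genes. The 9 BMDM libraries were fitted together, the 6 BMSC libraries together, and all 15 for the difference of NZM responses, without a block. The procedure was tested on simulated data. Scripts and figures used Python 3.11.15. Promoter windows came from RefSeq on GRCm38.p6, an older build than that of the values, so coordinates apply to the windows alone.

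The members and all lists were chosen with earlier results of these data known. Values are printed in full for the members with the largest absolute change of each role per comparison (4 enzymes, 2 of each other role) and for Srebf2, Insig1, Hmgcs1, Sqle, Abca1, Abcg1 and Apoe, whatever their test. Of each neighbouring list the rule took up to 3 called genes with the largest change per comparison, and the first of them is printed, or none. Alternatives covered the pseudocount, filters, scaling, the variance model, the libraries fitted, a replicate block, a minimum change (added after the data were seen) and leaving out each library.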

Additional observations from a re-analysis of the deposited data

Results flagged for a closer look

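For 22 of the 30 members the change with NZM differed between BMDM and BMSC by the test of the difference itself (limma, adjusted over all genes tested). Of the members, 53.3% were called positive and 20% negative, near the 54.8% and 17.2% of all genes. Values are differences of log2 changes, BMDM minus BMSC, and all members called are given. Positive differences were those of Abcg1 (3.26), Dhcr7 (2.62), Mvd (1.14), Mvk (1.13), Lss (0.97), Msmo1 (0.94), Sqle (0.93), Scap (0.87), Ebp (0.83), Nsdhl (0.69), Cyp51 (0.60), Srebf1 (0.49), Fdps (0.44), Tm7sf2 (0.41), Nr1h3 (0.39) and Stard4 (0.29). Negative differences were those of Abca1 (-3.60), Acat2 (-0.72), Fdft1 (-0.62), Apoe (-0.42), Insig2 (-0.28) and Hmgcs1 (-0.23). By share called, the members as a set do not stand out from all genes in this test. After centring, Fdps, Cyp51, Tm7sf2, Srebf1, Nr1h3 and Stard4 turn negative (Fdps and Stard4 with a call), Nsdhl loses its call, and the other 15 keep their direction and their call. The cell types differ in the agent given with NZM as well, and the 2 cannot be told apart. The difference of Abcg1 is a description, since its BMSC levels lie near the filter limit.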

How the results depend on the processing

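Of 108 results for single genes, centring each library on its median gene kept direction and call in 87 and turned the direction of 17. Quantile normalization turned 11, counting Apoe in LPS_NZM against Control, whose change became 0 and so has no direction. The cause of these turns was not tested. With centring, LPS against Control became 0.52 for Hmgcs1, 0.38 for Srebf2, 0.093 for Insig1 and 0.27 for Apoe. LPS_NZM against LPS became -0.33 for Srebf2, -0.36 for Insig1, -0.043 for Mylip, -0.024 for Stard4 and -0.25 for Apoe. LPS_NZM against Control became 0.051 for Srebf2 and 0.0255 for Apoe, and Aged_NZM against Aged 0.053 for Hmgcs1 and 0.13 for Insig1. The difference of NZM responses became -0.14 for Srebf1, -0.49 for Insig1, -0.61 for Mylip and -0.33 for Stard4. Under quantile normalization, LPS against Control was 0.15 for Hmgcs1, LPS_NZM against LPS was -0.22 for Insig1, -0.040 for Mylip and -0.038 for Stard4, LPS_NZM against Control was 0 for Apoe, and Aged_NZM against Aged was 0.033 for Hmgcs1 and 0.11 for Insig1. The difference of NZM responses was then -0.0854 for Srebf1, -0.33 for Insig1, -0.47 for Mylip and -0.23 for Stard4. With a pseudocount of 0.1, that of Mylip was -0.023.

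Counts moved by more than 1.5 times as follows. With centring, LPS against Control had 10 enzymes higher and 6 lower and 17 members higher and 10 lower. LPS_NZM against LPS had 6 enzymes higher and 9 members higher and 15 lower. Aged_NZM against Aged had 5 enzymes and 7 members lower, and the difference of NZM responses had 7 enzymes higher and 8 lower and 9 members higher and 16 lower. With quantile normalization, LPS against Control had 8 enzymes higher, 8 lower and 11 members higher, LPS_NZM against LPS had 11 members higher, Aged_NZM against Aged had 6 enzymes and 8 members lower, and the difference had 7 enzymes lower and 10 members higher and 15 lower. With a minimum absolute log2 change of 1, enzymes were 3 lower in LPS against Control, 1 higher and 0 lower in LPS_NZM against LPS, 0 and 0 in LPS_NZM against Control and in Aged_NZM against Aged, and 3 higher and 0 lower in the difference. Members were then 0 higher and 4 lower, 2 and 1, 1 and 2, 1 and 0, and 4 and 1 in the 5 comparisons in that order. Fitting the 2 groups alone, LPS_NZM against Control had 1 enzyme higher in place of 2.

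Leaving out each library in turn, enzymes higher in LPS against Control numbered 0 to 1 and members higher 2 to 4, and enzymes higher in LPS_NZM against Control 1 to 2. Hmgcs1 in LPS against Control ranged from -0.068 to 0.0043 (the latter without Control replicate 2), Insig1 in Aged_NZM against Aged from -0.11 to 0.027, and Mylip in the difference from -0.063 to 0.067. The balance of synthesis against efflux was 1.93 in Aged, 1.23 in Aged_NZM and -2.92 in LPS with a pseudocount of 0.1, and -2.47 in Control, -2.65 in LPS, -2.92 in LPS_NZM and 0.82 in Aged_NZM with quantile normalization. With Abca1 and Abcg1 as the only efflux genes it was 0.92, 0.48, 0.36, 2.39 and 1.60 in Control, LPS, LPS_NZM, Aged and Aged_NZM.

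Libraries of the same replicate number correlated weakly in their deviations from group means (-0.08 to 0.20). The correlation was above 0.1 in 2 of 3 pairs for Control with LPS_NZM and in 0 for the other pairs of groups. For Control with LPS_NZM, same-number pairs ran from 0.02 to 0.20 and different-number pairs from -0.18 to 0.05. With 3 libraries per group this check cannot exclude pairing by replicate number. With the replicate number as a block, LPS_NZM against Control had 1 enzyme higher in place of 2, and 108 of 108 results for single genes given in full kept their direction and call. Among the other members the block lost the calls of Sc5d in LPS against Control and of Acat2, Pmvk and Srebf1 in LPS_NZM against Control, and gained that of Idi1 in LPS against Control. Unknown depth and 3 libraries per group limit the precision of low genes such as Abcg1 in BMSC.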
